A study of Homo sapiens with 6 samples.

Results

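Genes that carry proteins into the endoplasmic reticulum (ER), fold them there and pack them into transport vesicles were described on 6 Affymetrix arrays of HEK293 cells, a human embryonic kidney line. They were all genes whose symbol fits a fixed pattern of names (SEC, SSR, SRP, TRAM, SPCS, OST subunits, CANX, CALR, PDIA, HSPA5, HSP90B1, TMED, COPI subunits, KDELR, LMAN, SURF4 and SAR1), read from probe sets with 1 symbol. The pattern found 78 of the 11584 genes in the table, and each had a single probe set there. Of the 78, 75 are protein-coding genes and 3 are a pseudogene or non-coding transcripts that share the first letters of a member's name. A filter asking for a log2 value above 4 on at least 2 arrays removed none of them.

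All cells were a T-REx Flp-In HEK293 line with a FLAG/HA-tagged copy of LIN28B that doxycycline switches on. A first group was transfected with siRNA against LIN28B while the transgene was not induced. Another was mock transfected with the transgene induced, with 250 ng/ml doxycycline per the labels' protocols. The reference was mock transfected and not induced, and each group had 2 arrays. The cells thus share the transgene, no array here holds a non-targeting siRNA, and siRNA transfection and loss of LIN28B cannot be told apart. The study asked how mRNA levels change when LIN28B, an RNA-binding protein, is depleted. Where the labels number replicates they do not say whether these were separate cultures, so the spread may be technical.

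Proteins bound for secretion or for membranes are marked by a signal sequence, which the signal recognition particle binds on the ribosome and brings to its receptor on the ER. The SEC61 channel lets the chain through, signal peptidase cuts the signal off, oligosaccharyltransferase adds sugar chains, and chaperones fold the product. COPII vesicles carry cargo from the ER to the Golgi, COPI vesicles bring escaped ER proteins back, and cargo receptors choose what is loaded. In mouse embryonic stem cells the related protein LIN28A has been described as binding mRNAs that are translated at the ER.

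The targeted gene and marker genes were read first. LIN28B had log2 values of 7.51 and 7.53 on the siRNA arrays, 10.15 and 10.11 on the induced arrays and 10.02 and 9.85 on the arrays not induced. Of 9 markers fixed for HEK293 cells 7 were in the table, EPCAM, KRT8, KRT18, VIM, CDH2, NEFL and LIN28B, and all were above 7 on every array. Of 6 fibroblast markers 1 was in the table (COL1A1, 5.96 to 6.28) and of 5 blood cell markers 2 were (CD79A and HBB, 4.93 to 5.38). NEFL read 9.92 and 9.97 on the siRNA arrays, against 10.53 and 10.54 on those not induced, and KRT8 read 8.25 and 8.21 against 7.71 and 7.99. The part of these markers in the results was not tested, and in bulk RNA fewer cells of a type and less RNA per cell cannot be told apart. Arrays correlated across probe sets at r = 0.9899 to 0.9937 within groups and at 0.9700 to 0.9745 between the siRNA arrays and the mock arrays.

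Values are the authors' log2 levels per probe set, and a difference between groups is a log2 fold change. Calls are those of limma, fitted to all genes on all 6 arrays, with the p adjusted over all genes and a threshold of 0.05, and "rose" and "fell" below are used for called genes. In the siRNA cells 26 members rose, 6 fell and 46 did not pass, against the mock cells not induced. Called higher were 33.3% of the members, and 13.5% of all genes. Called lower were 7.69% of the members, and 14.5% of all genes. In either direction the shares were 41.0% of the members and 28.0% of all genes. Counts for single roles below stand against these same shares over all genes.

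The rises were small and many, and the falls were few and included the largest change. Rises of called members ran from 0.20 (SPCS1) to 1.21 (TRAM1L1), with a median of 0.38, and falls from -0.12 (SRP9) to -1.77 (CANX). CANX changed by more than 2-fold. The fitted change of TRAM1L1 also passed 2-fold, but its mock values were so low that the size is uncertain, as given below. The median log2 fold change was 0.11 over all 78 members and 0.01 over all genes, and 69.2% of members lay above 0, against 50.8% of all genes. Both siRNA arrays read above all 4 mock arrays for 39 of the 78 members, against 27.1% of all genes, and below all 4 for 12 members, or 15.4%, against 26.0%. Either pattern held for 53.1% of all genes, so it is common among genes at large.

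Precision differed too. The median standard error (SE) of the fold change was 0.086 for the members and 0.12 for all genes. The part of this in the share of calls was not tested. With 1 siRNA array left out, the remaining one is assumed to vary like the mock arrays, from which the spread is then taken. Fewer genes passed: 14 members were higher and 4 lower without replicate 1 (7.04% and 7.33% of all genes), and 15 were higher and 3 lower without replicate 2 (7.30% and 9.75%). Without eBayes's intensity trend 15 were higher and 5 lower, or 19.2% and 6.41% of the members (10.6% and 11.7% of all genes). In either direction that fit called 25.6% of the members and 22.3% of all genes. These shares lie closer together than the 41.0% and 28.0% with the trend, so the excess of calls among members depends on this setting. The 12 calls lost there were those of COPE, LMAN2, PDIA3, SAR1A, SAR1B, SEC22B, SEC23B, SEC61B, SPCS1, SRP9, SRPRB and SSR2. Of the 32 called members 14 kept their call without any of the 6 arrays in turn: CANX, SSR1 and SEC31B among the falls, and DAD1, DDOST, RPN2, SEC11A, SEC11C, SPCS2, SEC61B, SSR2, HSPA5, LMAN2L and TRAM1L1 among the rises. Of these 14, SEC61B and SSR2 are among the calls lost without the trend.

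**Figure D1:**
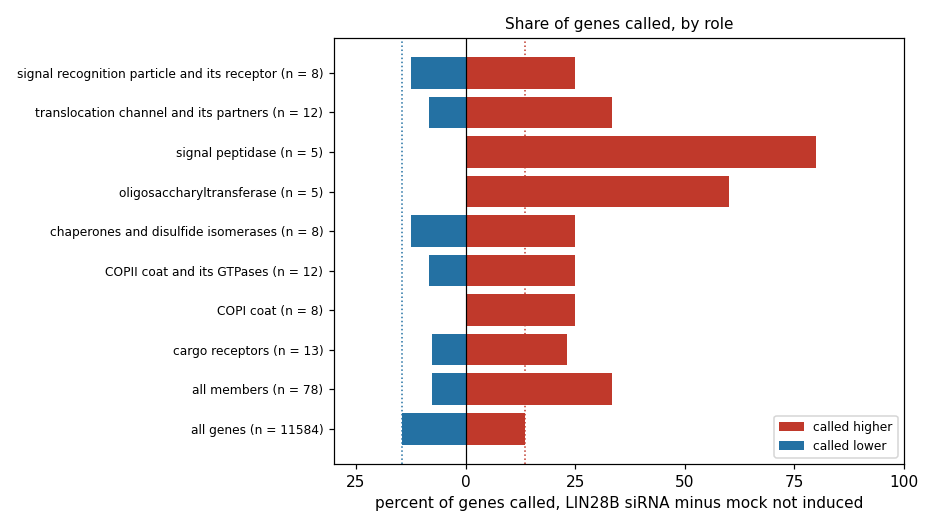
Percent of genes called higher (right of 0) and lower (left of 0) in LIN28B siRNA cells against mock cells not induced, for each role with at least 5 members, all 78 members and all 11584 genes. Dotted lines mark the shares over all genes, 13.5% higher and 14.5% lower. On the higher side signal peptidase has the longest bar (4 of 5 members), followed by oligosaccharyltransferase (3 of 5).

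Among 8 genes of the signal recognition particle and its receptor 2 rose, both of the receptor, 1 fell and 5 did not pass. SRPRA, the receptor subunit that docks with the particle, read 7.81 and 7.73 on the siRNA arrays, 7.39 and 7.20 on the induced arrays and 7.18 and 7.34 on the arrays not induced. Both siRNA arrays stood above all mock arrays, with a difference of 0.51 (SE 0.11, limma adjusted p = 0.00764). SRPRB, the membrane anchor of the receptor, read 9.51 and 9.31 on the siRNA arrays, 9.08 and 9.02 on the induced and 9.06 and 9.19 on the arrays not induced, a change of 0.28 (SE 0.09, limma adjusted p = 0.038).

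Of 6 particle subunits none rose. SRP9, which with SRP14 forms the domain that pauses translation, fell by 0.12 (SE 0.04, limma adjusted p = 0.0423), with 11.89 and 11.84 on the siRNA arrays, 12.05 and 12.06 on the induced arrays and 11.97 and 12.002 on the arrays not induced. SRP14, SRP19, SRP54, SRP68 and SRP72 did not pass and ranged from -0.16 (SRP68) to 0.13 (SRP54, which reads the signal sequence). The calls here were not firm. SRP9 lost its call without each of the 6 arrays in turn, with adjusted p between 0.0577 and 0.208 by limma, SRPRA without siRNA replicate 1 (0.47, adjusted p = 0.0694), and SRPRB without siRNA replicate 1 (0.18, adjusted p = 0.277), either induced array (0.28) or replicate 1 of the cells not induced (0.22).

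Among 12 genes of the translocation channel and its partners 4 rose, 1 fell and 7 did not pass. SEC61B, the small beta subunit of the channel, read 11.04 and 11.11 on the siRNA arrays, 10.79 and 10.79 on the induced arrays and 10.81 and 10.81 on the arrays not induced (0.26, SE 0.05, limma adjusted p = 0.00414). SEC62, which serves import after translation, read 8.99 and 9.08 on the siRNA arrays, 8.69 and 8.56 on the induced and 8.71 and 8.63 on the arrays not induced (0.37, SE 0.08, limma adjusted p = 0.00899). For both genes the siRNA arrays lay above all 4 mock arrays. The pore subunit genes SEC61A1 (-0.21) and SEC61A2 (-0.32) and SEC63, the partner of SEC62 (-0.17), did not pass. Without siRNA replicate 2 SEC62 had 0.33 and lost its call (limma adjusted p = 0.0795). SEC61B lost its call without the intensity trend.

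The 4 subunits of the translocon-associated protein complex (TRAP), which helps some chains into the channel, did not move together. SSR1, the alpha subunit, read 8.03 and 7.89 on the siRNA arrays, 8.87 and 8.80 on the induced arrays and 8.94 and 8.77 on the arrays not induced. It fell by 0.90 (SE 0.09, limma adjusted p = 0.000172), which is 1.86-fold, and the groups were far apart. SSR2, the beta subunit, rose by 0.24 (SE 0.05, limma adjusted p = 0.00413), with 11.24 and 11.22 on the siRNA arrays, 10.97 and 10.98 on the induced arrays and 11.002 and 10.99 on the arrays not induced. SSR3 had 0.37 (95% interval 0.04 to 0.70) and SSR4 0.03 (-0.06 to 0.13), and neither passed. SSR1 and SSR2 were called in opposite directions, each from 1 probe set. The call of SSR2 was lost without the intensity trend, and that of SSR1 was kept.

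TRAM1L1, a relative of the translocating-chain membrane protein TRAM1, had the largest fitted rise, from low values. It read 5.21 and 5.52 on the siRNA arrays, 3.92 and 4.42 on the induced arrays and 4.31 and 4.01 on the arrays not induced, a rise of 1.21 (SE 0.24, 95% interval 0.67 to 1.74, limma adjusted p = 0.00481). The siRNA arrays stood above all mock arrays, but all mock values were under 5, and the blood cell markers CD79A and HBB read 4.93 to 5.38 in these cells. The deposited values hold no detection calls, so whether this probe set was above background is not known and the size of its change is uncertain. TRAM1 (0.15, limma adjusted p = 0.148) and TRAM2 (-0.09) did not pass. Whether TRAM1L1 differs in its change from TRAM1 was not tested.

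Among roles with at least 5 members signal peptidase had the largest share of rises. Of its 5 genes 4 rose and none fell, and for all 5 both siRNA arrays read above all 4 mock arrays. Over all genes 13.5% were called higher, and 27.1% had both siRNA arrays above all 4 mock arrays. SEC11A and SEC11C encode alternative catalytic subunits. SEC11C read 10.14 and 10.19 on the siRNA arrays, 9.66 and 9.70 on the induced arrays and 9.73 and 9.67 on the arrays not induced (0.46, SE 0.06, limma adjusted p = 0.00072). SEC11A read 11.71 and 11.65 on the siRNA arrays, 11.41 and 11.38 on the induced arrays and 11.37 and 11.35 on the arrays not induced (0.32, SE 0.04, limma adjusted p = 0.000832). In each case the gap between the groups was several times the spread within them.

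Accessory subunits of the peptidase read likewise. SPCS2 read 11.74 and 11.70 on the siRNA arrays, 11.21 and 11.37 on the induced and 11.35 and 11.43 on the arrays not induced (0.33, SE 0.06, limma adjusted p = 0.00283). SPCS1 had the smallest rise of all called members, 0.20 (SE 0.04, limma adjusted p = 0.00665), with 11.92 and 11.86 on the siRNA arrays, 11.69 and 11.72 on the induced and 11.71 and 11.68 on the arrays not induced. SPCS3 did not pass at 0.35 (95% interval 0.07 to 0.62, limma adjusted p = 0.0626), its siRNA arrays lying apart from each other at 7.30 and 7.57. It was called with both mock groups as reference, with arrays centred on their medians and after quantile normalization. SPCS1 lost its call without siRNA replicate 1 (0.17, limma adjusted p = 0.0647).

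Of 5 oligosaccharyltransferase genes 3 rose, none fell and 2 did not pass. DAD1, a small subunit first described as a defender against cell death, read 11.43 and 11.47 on the siRNA arrays, 11.05 and 10.96 on the induced arrays and 11.01 and 10.97 on the arrays not induced. The change of 0.46 (SE 0.05, limma adjusted p = 0.000238), or 1.37-fold, had the smallest p among the rises of the members. DDOST, a further non-catalytic subunit, read 10.73 and 10.71 on the siRNA arrays, 10.38 and 10.34 on the induced arrays and 10.29 and 10.31 on the arrays not induced (0.42, SE 0.05, limma adjusted p = 0.000495). RPN2, the ribophorin II gene, read 12.27 and 12.20 on the siRNA arrays, 11.93 and 11.94 on the induced and 11.94 and 11.95 on the arrays not induced (0.29, SE 0.04, limma adjusted p = 0.000802). These 3 genes had siRNA arrays above all mock arrays and kept their call without each array in turn. RPN1 (0.10, 95% interval -0.09 to 0.29) and the catalytic subunit gene STT3A (0.13, -0.06 to 0.31) did not pass, and their groups overlapped.

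**Figure D2:**
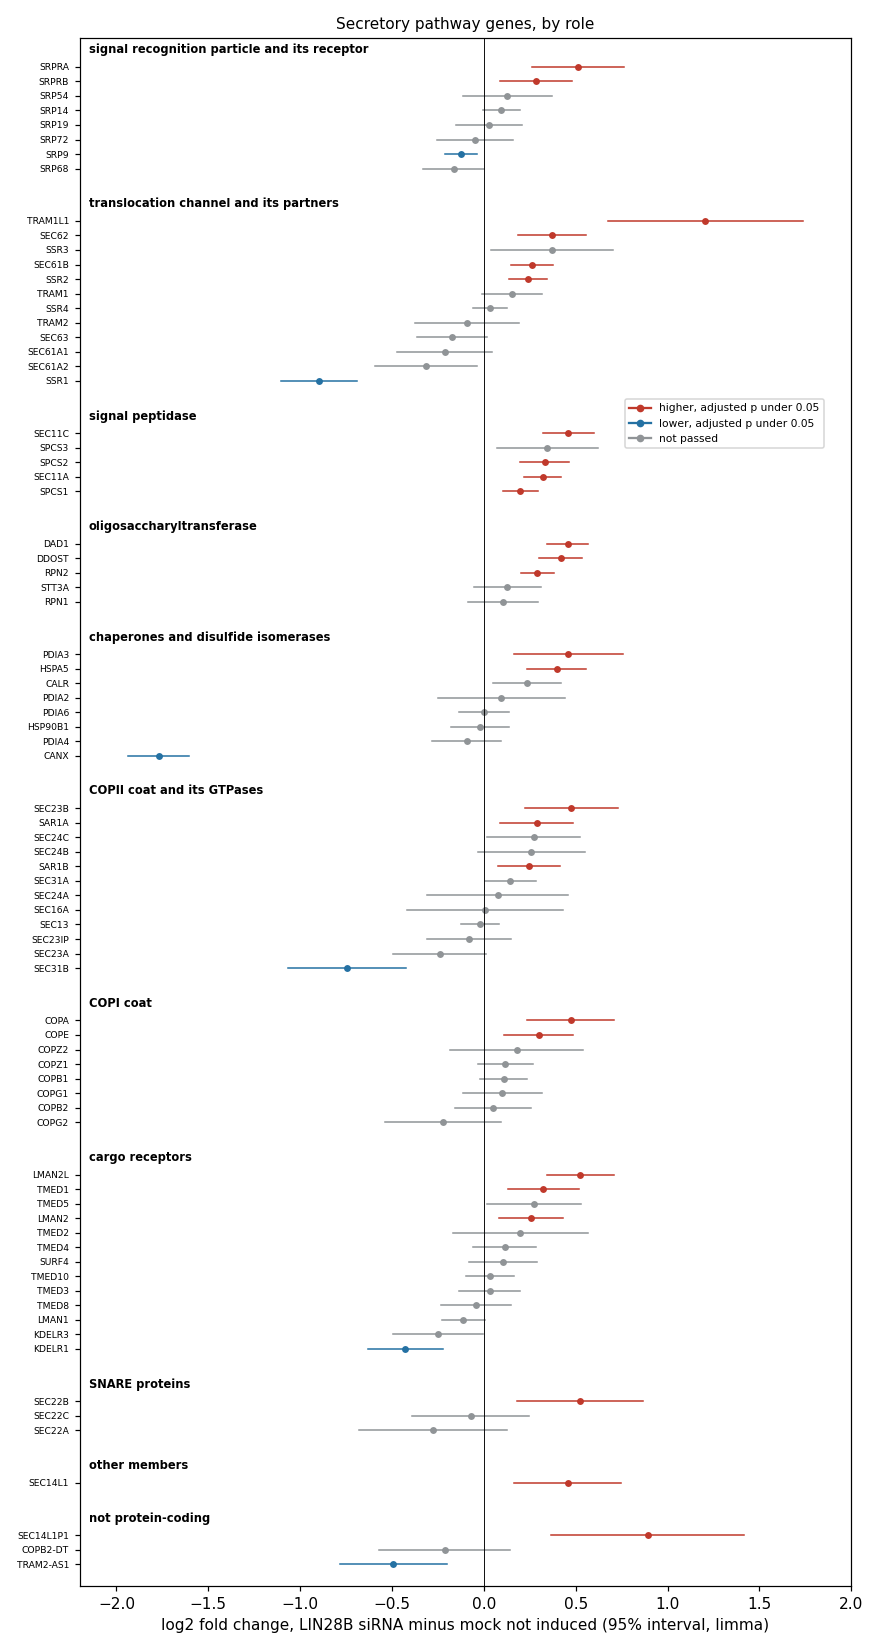
Log2 fold change of each of the 78 members, LIN28B siRNA minus mock not induced, sorted within each role. Points are limma estimates with 95% intervals over 2 arrays a group, red for called higher, blue for called lower and grey for not passed. CANX at -1.77 and SSR1 at -0.90 stand far to the left and TRAM1L1 at 1.21 far to the right, with most of the other members between them and close to 0.

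Chaperone and disulfide isomerase genes went separate ways. Of 8, 2 rose, 1 fell and 5 did not pass. CANX encodes calnexin, the membrane-bound chaperone that holds newly glycosylated proteins until they fold. It read 8.15 and 8.14 on the siRNA arrays, 9.91 and 9.86 on the induced arrays and 9.99 and 9.84 on the arrays not induced, a fall of 1.77 (SE 0.07, limma adjusted p = 1.4e-06) or 3.41-fold. All mock arrays lay close together and far above the siRNA arrays. The table holds 1 probe set for CANX, and the sources used here do not say which part of the transcript it reads. Its soluble relative CALR, calreticulin, had 9.08 and 9.07 on the siRNA arrays, 8.86 and 8.82 on the induced arrays and 8.74 and 8.93 on the arrays not induced. The difference of 0.24 (95% interval 0.05 to 0.42) did not pass (limma adjusted p = 0.0603). CALR was called with both mock groups as reference and with arrays centred on their medians.

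HSPA5 encodes BiP, the HSP70 chaperone of the ER and a common marker of the unfolded protein response. It read 9.36 and 9.35 on the siRNA arrays, 8.91 and 8.87 on the induced arrays and 8.92 and 9.003 on the arrays not induced, a rise of 0.40 (SE 0.07, limma adjusted p = 0.00316) or 1.32-fold. PDIA3, the isomerase that works with calnexin and calreticulin, rose by 0.46 (SE 0.13, limma adjusted p = 0.0284), with 7.44 and 7.25 on the siRNA arrays, 7.04 and 6.88 on the induced arrays and 6.75 and 7.03 on the arrays not induced. It lost its call without siRNA replicate 1 (0.37, adjusted p = 0.187), siRNA replicate 2 (0.55, adjusted p = 0.0581) or replicate 1 of the cells not induced (0.32, adjusted p = 0.115). HSP90B1, the HSP90 chaperone of the ER, had 10.54 and 10.62 on the siRNA arrays, 10.66 and 10.52 on the induced arrays and 10.68 and 10.53 on the arrays not induced, so the groups overlapped (-0.02, 95% interval -0.18 to 0.14). PDIA2 (0.10), PDIA4 (-0.09) and PDIA6 (0.00) did not pass either.

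Some of these genes share a known promoter element. The ER stress response element, which the factors NF-Y and ATF6 bind together, was searched as CCAAT and CCACG with 9 bases of any kind between them, on both strands of RefSeq promoter windows (GRCh38.p14) that run from 250 bases before to 50 after each gene's start. It was found in the windows of 5 of the 71 members that have one (7.04%), and in 0.169% of the 9476 genes of the table that have one. Over all 35116 windows the share was 0.0769%. The element was already known for genes of this kind. A higher share among the members was thus likely beforehand and is no result of these arrays. The genes of the table and all windows include those of the members. The 5 members are CALR (chr19:12938384-12938402), CANX (chr5:179698778-179698796), HSP90B1 (chr12:103930216-103930234 and chr12:103930321-103930339), HSPA5 (chr9:125241391-125241409) and PDIA6 (chr2:10812853-10812871). HSPA5 and PDIA6 lie on the minus strand and the others on the plus strand. Each match is given 5′ to 3′ in the direction of the element, with the fixed bases in capitals. The search fixed those bases, so matches can differ only in the 9 bases between them.
CALR: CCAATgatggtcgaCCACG
CANX: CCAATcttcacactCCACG
HSP90B1 first match: CCAATcggaaggagCCACG
HSP90B1 second match: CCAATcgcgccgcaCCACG
HSPA5: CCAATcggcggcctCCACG
PDIA6: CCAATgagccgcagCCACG

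Of these 5 genes 1 rose (HSPA5), 1 fell (CANX) and 3 did not pass, and of all genes 28.0% were called in either direction. The windows of the 2 that were called are printed whole, and the part of the element in their levels was not tested. The HSPA5 window is chr9:125241294-125241593 on the minus strand and the CANX window chr5:179698537-179698836 on the plus strand, with the element's fixed bases in capitals.
HSPA5: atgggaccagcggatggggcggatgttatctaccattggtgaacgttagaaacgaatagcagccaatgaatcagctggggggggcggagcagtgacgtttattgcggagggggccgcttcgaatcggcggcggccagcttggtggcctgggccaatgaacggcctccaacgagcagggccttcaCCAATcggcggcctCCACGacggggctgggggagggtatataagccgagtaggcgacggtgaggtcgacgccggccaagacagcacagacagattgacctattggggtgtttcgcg
CANX: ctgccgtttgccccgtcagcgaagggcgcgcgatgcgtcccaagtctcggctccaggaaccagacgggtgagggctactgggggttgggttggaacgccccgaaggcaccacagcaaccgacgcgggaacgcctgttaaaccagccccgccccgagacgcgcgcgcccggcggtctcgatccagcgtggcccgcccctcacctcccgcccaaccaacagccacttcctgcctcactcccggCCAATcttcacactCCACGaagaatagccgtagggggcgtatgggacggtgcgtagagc

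A match is a description of letters, and no factor binding was measured on these arrays. CANX has 4 windows in the table of promoters, of which 1 that holds the element is shown. In another CANX window the same match begins at -151 from the start, so its distance from the start depends on the window. A shorter element of the response, TGACGTGG, which the factor XBP1 binds, was found in the windows of 12 members (16.9%), against 1.2% of the genes of the table and 0.729% of all windows. The limit given for the shares of the first element holds here too. Of these 12, COPA and SEC62 rose, none fell and 10 did not pass, where 13.5% of all genes were called higher and 14.5% lower. COPB2 and the non-coding transcript COPB2-DT share both matches, and their windows overlap.

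**Figure D3:**
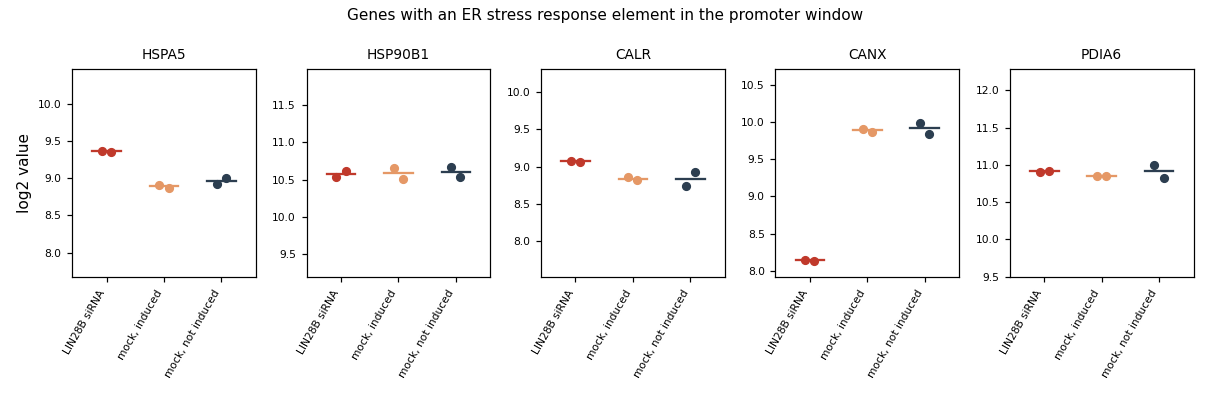
Log2 values on each array for the 5 members whose promoter window holds the ER stress response element, with LIN28B siRNA at left, then mock induced and mock not induced. Points are single arrays, lines are means of 2 arrays, and every panel spans the same number of log2 units. HSPA5 sits higher and CANX far lower on the siRNA arrays, and HSP90B1 and PDIA6 overlap between groups.

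COPII coat genes gave 3 rises and 1 fall among 12. SEC23B, 1 of 2 paralogs that encode the inner coat protein SEC23, read 10.32 and 10.41 on the siRNA arrays, 9.88 and 9.88 on the induced arrays and 10.10 and 9.68 on the arrays not induced (0.48, SE 0.11, limma adjusted p = 0.0116). Its paralog SEC23A had -0.24 (95% interval -0.49 to 0.01) and did not pass. SEC31B, the less widely expressed paralog of the outer coat protein SEC31, read 6.08 and 5.83 on the siRNA arrays, 6.47 and 6.47 on the induced and 6.57 and 6.83 on the arrays not induced. It fell by 0.75 (SE 0.14, limma adjusted p = 0.00427), or 1.68-fold, while SEC31A had 0.14 (0.01 to 0.28, limma adjusted p = 0.112).

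SAR1A and SAR1B encode the GTPases that start coat assembly, and both rose slightly. SAR1A read 9.27 and 9.43 on the siRNA arrays, 9.14 and 9.16 on the induced arrays and 9.16 and 8.96 on the arrays not induced (0.29, SE 0.09, limma adjusted p = 0.0366). SAR1B read 9.44 and 9.44 on the siRNA arrays, 9.10 and 9.12 on the induced and 9.26 and 9.12 on the arrays not induced (0.25, SE 0.07, limma adjusted p = 0.0341). The cargo-binding paralogs SEC24A, SEC24B and SEC24C (0.08 to 0.27), SEC13 (-0.02), SEC16A (0.01) and SEC23IP (-0.08) did not pass. SEC16A read 7.67 and 8.31 on the arrays not induced, so little can be said of it.

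Several COPII calls were lost with 1 array left out, in some fits with little change in the estimate. SEC23B lost its call without siRNA replicate 1 (0.52, limma adjusted p = 0.0533) or 2 (0.43, limma adjusted p = 0.0863), and kept it at 0.27 with replicate 2 of the uninduced mock cells left out. SAR1A lost its call without either siRNA array (0.37 and 0.21), either induced array (0.29) or replicate 2 of the cells not induced (0.19), and SAR1B without the same arrays (0.17 to 0.25), with limma adjusted p between 0.0578 and 0.239 for both.

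COPI coat genes gave 2 rises, no fall and 6 that did not pass. COPA, the alpha subunit, read 7.83 and 8.03 on the siRNA arrays, 7.55 and 7.65 on the induced arrays and 7.45 and 7.46 on the arrays not induced (0.47, SE 0.10, limma adjusted p = 0.00856). COPE, the epsilon subunit of the same outer layer, read 9.68 and 9.75 on the siRNA arrays, 9.23 and 9.40 on the induced and 9.50 and 9.34 on the arrays not induced (0.30, SE 0.08, limma adjusted p = 0.0259). In both the siRNA arrays stood above all mock arrays. COPB2, which completes that layer, had 0.05 (95% interval -0.16 to 0.26). COPB1, COPG1, COPG2, COPZ1 and COPZ2, of the inner layer, ran from -0.22 (COPG2) to 0.18 (COPZ2). COPA lost its call without siRNA replicate 2 (0.37, limma adjusted p = 0.0827), and COPE without siRNA replicate 1 (0.33), siRNA replicate 2 (0.26) or replicate 2 of the cells not induced (0.22), with limma adjusted p between 0.0896 and 0.147.

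Among 13 cargo receptor genes 3 rose, 1 fell and 9 did not pass. LMAN2L, a lectin of the ER and early secretory pathway, read 8.75 and 8.74 on the siRNA arrays, 8.18 and 8.25 on the induced arrays and 8.23 and 8.21 on the arrays not induced (0.52, SE 0.08, limma adjusted p = 0.00144). Its relative LMAN2 rose by 0.26 (SE 0.08, limma adjusted p = 0.0335), with 8.99 and 8.99 on the siRNA arrays, 8.72 and 8.63 on the induced and 8.69 and 8.77 on the arrays not induced. LMAN1, the receptor that exports coagulation factors, had -0.11 (95% interval -0.23 to 0.01) and did not pass.

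KDELR1, which returns chaperones bearing the KDEL signal to the ER, fell by 0.43 (SE 0.09, limma adjusted p = 0.00692). It read 8.32 and 8.30 on the siRNA arrays, 8.69 and 8.77 on the induced arrays and 8.64 and 8.84 on the arrays not induced. KDELR3 had -0.25 (95% interval -0.49 to -0.003, limma adjusted p = 0.123), and KDELR2 was not analysed here. TMED1, of the p24 family of cargo adaptors, rose by 0.32 (SE 0.09, limma adjusted p = 0.0196), with 8.51 and 8.45 on the siRNA arrays, 8.22 and 8.14 on the induced and 8.12 and 8.20 on the arrays not induced. The other TMED genes measured (TMED2, TMED3, TMED4, TMED5, TMED8 and TMED10) ran from -0.04 to 0.27 and SURF4 had 0.10, none passing. TMED2 read 10.59 on siRNA replicate 1 and 9.99 on replicate 2. KDELR1 lost its call without siRNA replicate 2 (-0.42, limma adjusted p = 0.0513). TMED1 lost it without siRNA replicate 1 (0.29, adjusted p = 0.13) or 2 (0.36, adjusted p = 0.0689), and LMAN2 without every array in turn but replicate 2 of the cells not induced (0.22 to 0.26, adjusted p between 0.0598 and 0.143).

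SEC22B, a SNARE protein that fuses vesicles between ER and Golgi, read 8.67 and 8.75 on the siRNA arrays, 8.19 and 8.41 on the induced arrays and 8.45 and 7.92 on the arrays not induced (0.52, SE 0.15, limma adjusted p = 0.0306). The arrays not induced lay far apart, and the call was lost without siRNA replicate 1 (0.56, adjusted p = 0.109), siRNA replicate 2 (0.48, adjusted p = 0.152) or replicate 2 of the cells not induced (0.26, adjusted p = 0.121), while it had 0.79 without replicate 1 of those. SEC22A had -0.28 (95% interval -0.68 to 0.13), with 5.27 and 5.48 on the siRNA arrays, 5.55 and 5.56 on the induced and 5.86 and 5.44 on the arrays not induced. SEC22C had -0.07, and neither passed.

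A few members share a name and not the pathway. SEC14L1, of a family of lipid transfer proteins, rose by 0.46 (SE 0.13, limma adjusted p = 0.0262), with 7.33 and 7.23 on the siRNA arrays, 6.98 and 7.09 on the induced arrays and 6.67 and 6.98 on the arrays not induced. Its pseudogene SEC14L1P1 rose by 0.89 (SE 0.23, limma adjusted p = 0.019), with 5.35 and 5.76 on the siRNA arrays, 5.43 and 5.02 on the induced and 4.91 and 4.41 on the arrays not induced, with the same limit as for TRAM1L1. The siRNA arrays overlapped the induced arrays there. A pseudogene and its parent can share probes, so these may not be separate measurements. TRAM2-AS1, antisense to TRAM2, fell by 0.49 (SE 0.13, limma adjusted p = 0.0189), with 5.99 and 6.08 on the siRNA arrays, 6.60 and 6.40 on the induced and 6.52 and 6.53 on the arrays not induced. COPB2-DT had -0.21 and did not pass.

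Each of these 3 calls was lost without some array. SEC14L1 lost it without siRNA replicate 1 (0.40), siRNA replicate 2 (0.51) or replicate 1 of the cells not induced (0.30), SEC14L1P1 without siRNA replicate 2 (0.69) or replicate 2 of the cells not induced (0.64), and TRAM2-AS1 without siRNA replicate 1 (-0.45), siRNA replicate 2 (-0.54) or replicate 2 of the cells not induced (-0.49). Limma adjusted p ran from 0.0515 to 0.155. With the 3 non-coding members and SEC14L1 set aside, 24 of 74 rose and 5 fell.

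**Figure D4:**
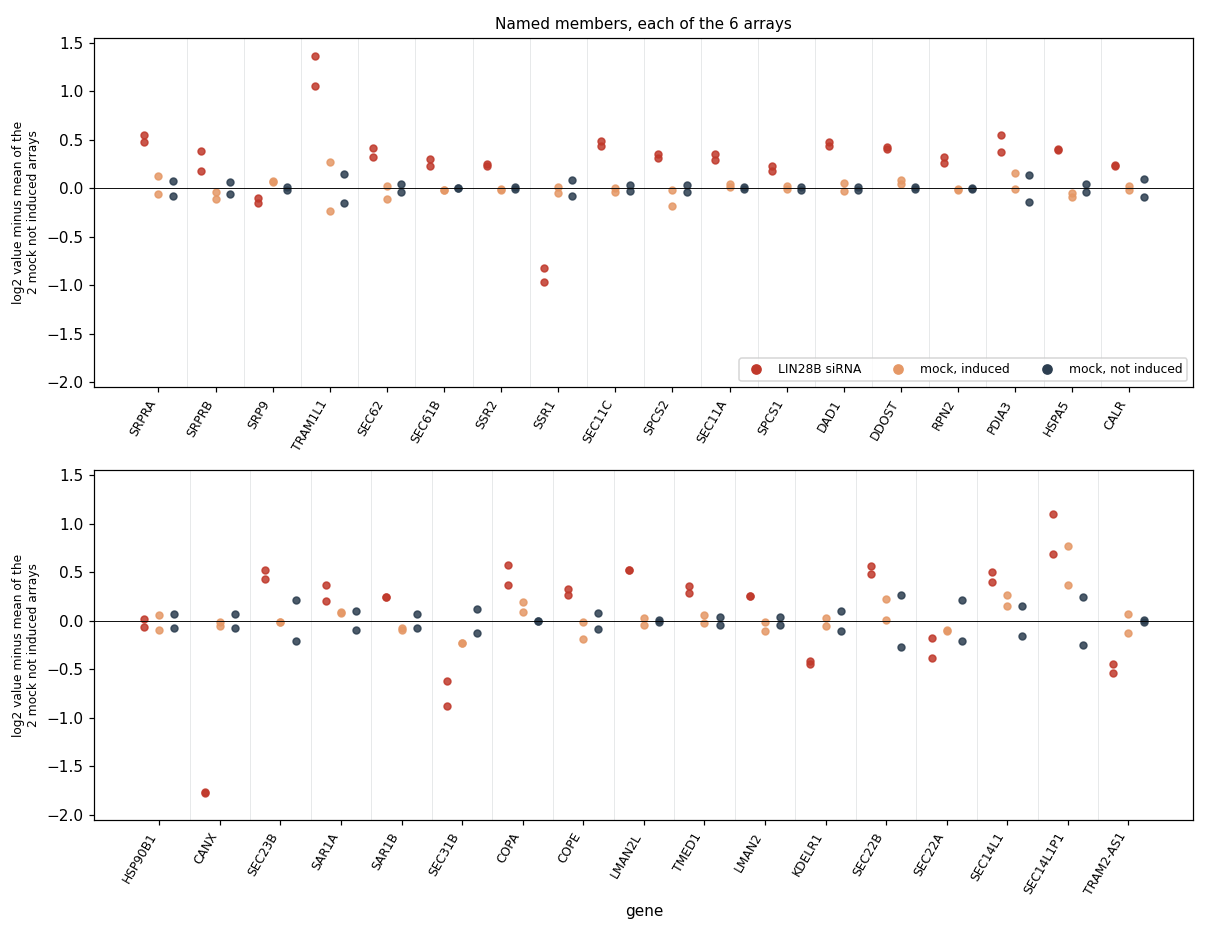
Log2 value on each of the 6 arrays minus the mean of the 2 mock arrays not induced, for the 35 members named with all their values, with LIN28B siRNA at left of each gene, then mock induced and mock not induced. Each point is 1 array. The siRNA points of CANX lie near -1.77 and those of SSR1 near -0.90, and the induced points stay close to 0 for most genes.

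Against the induced mock cells the siRNA cells showed 24 members higher and 6 lower, with 48 not passing. Of all genes 28.4% were called there, 14.0% higher and 14.5% lower, in a comparison that uses the same siRNA arrays as the first. CANX had -1.74, SSR1 -0.88, SEC31B -0.52 and KDELR1 -0.42 there, and TRAM1L1 1.19, DAD1 0.44, HSPA5 0.47, SEC11C 0.48 and LMAN2L 0.53, all called. TRAM1 (0.32, limma adjusted p = 0.00917), SEC24C (0.34, limma adjusted p = 0.0455) and SEC31A (0.19, limma adjusted p = 0.0424) were called in this comparison alone. SEC22B (0.41), SAR1A (0.20), PDIA3 (0.39), SEC14L1 (0.24) and SEC14L1P1 (0.32) did not pass in it.

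The mock cells labelled as induced showed no call among the members against those not induced. LIN28B itself was not called there (0.19, 95% interval 0.02 to 0.37, limma adjusted p = 0.999), so these arrays do not show the induction, and whether the probe set reads the transgene is not given in the labels. Limma called 0 of the 78, and 0% of all genes. Of the members 3 had an unadjusted p under 0.05, or 3.85%, against 2.97% of all genes. They were SRP68 (-0.215), SEC14L1P1 (0.57) and TRAM1 (-0.17), each with a limma adjusted p of 0.999. The median log2 fold change of the members was -0.01, with a range from -0.23 (SEC31B) to 0.57 (SEC14L1P1). CANX had -0.03 (95% interval -0.20 to 0.14) and SSR1 -0.02 (-0.23 to 0.19).

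Related genes outside the name pattern were read from 5 lists, and 145 of their 156 genes were in the table. Of these 38 rose, 10 fell and 97 did not pass, which is 26.2% and 6.90%, against 13.5% and 14.5% of all genes. The lists were chosen with earlier results of these data known and read on the same arrays, so they are no independent check of the members. Membrane insertion and glycosylation genes gave 14 rises and 2 falls among 36 (38.9% and 5.56%, median 0.17). GET3, the ATPase that delivers tail-anchored proteins, rose by 0.89, the mannosyltransferase genes ALG1 and ALG9 by 0.92 and 0.67, and EMC3 of the ER membrane complex by 0.64. ALG2 fell by 0.55 and OSTC, of the STT3A form of oligosaccharyltransferase, by 0.22. ER-associated degradation genes gave 8 rises and 1 fall among 17 (47.1% and 5.88%, median 0.21). AUP1 rose by 0.50, DERL1 by 0.50, the ubiquitin ligase gene RNF139 by 0.49 and the lectin gene OS9 by 0.48. The ubiquitin-conjugating enzyme gene UBE2J1 fell by 0.33.

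Folding and quality control genes outside the pattern gave 5 rises and 2 falls among 30 (16.7% and 6.67%, median 0.04). The BiP cochaperone gene DNAJB9 rose by 1.15 and the prolyl isomerase gene FKBP14 by 0.74, and DNAJC1 and the glucosyltransferase gene UGGT2 fell by 0.78 and 0.71. DNAJB9 read 6.69 and 6.25 on the siRNA arrays, 5.57 and 5.22 on the induced and 5.66 and 4.98 on the arrays not induced. Its mock values reach into the range of the blood cell markers (4.93 to 5.38), so the size of its rise is uncertain, as for TRAM1L1. UGGT2 read 5.37 and 5.66 on the siRNA arrays, so the size of its fall is uncertain too. ER to Golgi transport genes gave 9 rises and 2 falls among 47 (19.1% and 4.26%, median 0.08). ERGIC2 fell by 0.83 and ARFGAP3, of COPI vesicle uncoating, by 0.43, and TRAPPC6B, the golgin gene GOLGA2 and the SNARE gene USE1 rose by 0.52, 0.50 and 0.48. Regulators of the unfolded protein response gave 2 rises and 3 falls among 15 (13.3% and 20.0%, against 13.5% and 14.5% of all genes, median -0.02). YY1 fell by 0.65, NFYA by 0.57 and ATF4 by 0.32, and NFYC and CREB3 rose by 0.42 and 0.35. XBP1 had -0.20 (limma adjusted p = 0.222). Largest among the limma adjusted p values of the genes called in these lists and named here was 0.0428, for DERL1.

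Some of these calls were also lost with 1 array left out. Leaving out siRNA replicate 1 ended those of ARFGAP3, ATF4, CREB3, DERL1, DNAJB9, ERGIC2, GOLGA2, NFYC, OSTC, TRAPPC6B, UBE2J1 and UGGT2. Leaving out siRNA replicate 2 ended those of ARFGAP3, ATF4, CREB3, DERL1, GOLGA2, NFYA, OSTC, TRAPPC6B, UBE2J1 and USE1. With replicate 1 of the uninduced mock cells left out, ARFGAP3 (-0.26), NFYA and UBE2J1 were not called, and ERGIC2 (-0.52) and ATF4 (-0.51) were. With replicate 2 of those left out, ATF4 (-0.13), DERL1 (0.29), GOLGA2, OSTC and UGGT2 were not called, and UBE2J1 was not called without either induced array. The limma adjusted p of the lost calls lay between 0.0508 and 0.219.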

How the data were processed

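Total RNA (2 µg per sample, per the labels' protocols) was labelled and hybridised to Human Genome U133 Plus 2.0 arrays. The deposited log2 values per probe set were made by the authors with affy and GCRMA, per the submitters' processing notes; no version is stated. Base 2 was taken as what GCRMA returns. The table holds 13008 probe sets, part of the array, and how they were chosen is not given. Of these 11719 had 1 symbol in the platform annotation, updated by gene identifier to RefSeq. All 78 members matched. Probe sets for 32 members end in _x_at or _s_at and can pick up related transcripts.

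Limma 3.58.1 in R 4.3.3 fitted 1 model of 3 groups to all 6 arrays (eBayes with trend, 3 residual and 6.73 prior degrees of freedom), two-sided, with Benjamini-Hochberg adjustment over 11584 genes. Arrays give no read depth, and their number limits the precision. Members, roles and lists were chosen with earlier results of these data known. Named were, per role, up to 5 called members of largest change (topped up to 2 by smallest p), plus HSPA5, HSP90B1, CALR and CANX. From each list up to 4 called genes of largest change were named, and ALG2, ARFGAP3, OSTC, UBE2J1, ATF4 and XBP1 were added after their values were seen. Alternatives were other normalizations, filters, a 2-fold minimum, no trend, a replicate block and leaving out each array.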

Additional observations from a re-analysis of the deposited data

How the results depend on the processing

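All settings changed 1 choice at a time, and the cause of each change was not tested. Against the mock cells not induced 32 members were called (26 higher, 6 lower). Keeping only fitted changes of at least 2-fold left 2 (1 higher, 1 lower), and 255 of the 3242 genes called. This was a cut on the estimate, with no test against 2-fold. Without probe sets ending in _x_at or _s_at, which removes members, 20 of the 46 members left were called (43.5%), 15 of them higher. In that setting 2129 of 7669 genes were called (27.8%). Without the intensity trend 20 members were called (25.6%, against 22.3% of all genes), 15 of them higher. Leaving out each array in turn gave 18 to 29 members, 14 to 24 higher and 3 to 5 lower, and 1664 to 3143 genes. Against the induced mock cells 30 members were called (24 higher, 6 lower). There a minimum of 2-fold left 2 (1 higher, 1 lower), probe sets without _x_at or _s_at gave 15 higher, and leaving out each array gave 17 to 38, 14 to 31 higher and 3 to 7 lower. Of the list genes 48 were called, 31 without the trend, 1 at a minimum of 2-fold, and 24 to 48 with each array left out. The counts against the induced mock cells and those of the list genes are given without the share over all genes in each setting. They describe only how many calls remained. Members gained calls too. With both mock groups as reference these were CALR, SEC24C, SEC31A, SPCS3, TMED5 and TRAM1, with centring CALR and SPCS3, and after quantile normalization LMAN1 and SPCS3. With single arrays left out TMED2, SSR3, TMED5, CALR, SEC23A, SEC24C and SRP14 gained a call in at least 1 fit. Replicate numbers are shared between groups. Same-numbered arrays deviated together with correlations of -0.057 (siRNA with mock not induced), 0.016 (siRNA with mock induced) and 0.181 (mock induced with mock not induced). From 2 arrays a group this cannot show whether same-numbered arrays were handled together. With the replicate block 31 members were called (39.7%, against 29.5% of all genes). Of these 26 were higher and 5 lower, where 14.2% of all genes were higher and 15.3% lower. Set aside after the data were seen, the 3 members that are not protein-coding and SEC14L1 left 24 higher and 5 lower. With 2 arrays a group, small changes of noisy probe sets may go uncalled.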
